A study of Mus musculus with 12 samples.

Results

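The nuclear receptors of the NR4A family were followed through single-cell RNA sequencing of the mouse aorta. The family has 3 members, Nr4a1 (ENSMUSG00000023034, also called Nur77), Nr4a2 (ENSMUSG00000026826, Nurr1) and Nr4a3 (ENSMUSG00000028341, Nor1). They were taken by their symbols from the 32245 gene symbols of the 4 gene expression libraries, and all 3 were detected in every library. The libraries, 1 for each group, came from male C57BL/6J ApoE-/- mice aged 8 weeks at the start and followed for 24 weeks, with 18 mice in a group and 6 aortas pooled for sequencing. The group called Healthy (labelled as receiving no treatment) had a normal diet and saline, and the AS group had high-fat food with 1% cholesterol and 10% fat, and saline. The other groups had the same food with the carbonic anhydrase inhibitor methazolamide (MTZ, written methoxazolamide in the labels) at 25 mg/kg every other day. It was given from week 13 to week 24, after atherosclerosis was established (MTZ-treated), or for all 24 weeks (MTZ-preventive). A pool of aortas is 1 sample, so no difference between groups could be set against a spread between mice, and no test was made. Limits given with a value are 95% limits of counting error alone.

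NR4A proteins are called orphan receptors because no natural ligand that switches them is established, and their activity is set mainly by how much protein is made. Their genes are immediate early genes, transcribed within minutes of a stimulus without new protein synthesis, under factors such as CREB, MEF2 and NFAT. The proteins bind DNA alone at an element called NBRE or, for Nr4a1 and Nr4a2, together with a retinoid X receptor (RXR). In B and T cells they are induced by the antigen receptor, and Nr4a1 is widely used as a reporter of that signal. In the vessel wall the family is known from smooth muscle cells, endothelial cells and macrophages exposed to growth factors and lipids.

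In the RefSeq annotation of GRCm38.p6, Nr4a1 lies at chr15:101253902-101274795, Nr4a2 at chr2:57106830-57124003 and Nr4a3 at chr4:48045078-48086447. The sequences below are the 250 bases before an annotated start of each gene, 5′ to 3′ on the gene's strand. They are shown because the core letters of the cyclic AMP response element (CRE), the element that CREB binds, are repeated in all of them. Capitals mark each CRE core, TGACG or its complement CGTCA. The windows are chr15:101266596-101266845 on the plus strand for Nr4a1, chr2:57124004-57124253 on the minus strand for Nr4a2 and chr4:48045055-48045304 on the plus strand for Nr4a3. The window of Nr4a1 lies wholly inside the annotated gene and that of Nr4a3 reaches into it, and both genes have further starts upstream.
Nr4a1: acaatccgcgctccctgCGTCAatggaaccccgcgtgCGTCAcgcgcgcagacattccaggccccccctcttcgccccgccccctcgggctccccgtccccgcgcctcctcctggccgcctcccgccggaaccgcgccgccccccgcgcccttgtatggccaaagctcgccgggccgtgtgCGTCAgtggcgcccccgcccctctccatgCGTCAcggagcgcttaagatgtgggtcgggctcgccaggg
Nr4a2: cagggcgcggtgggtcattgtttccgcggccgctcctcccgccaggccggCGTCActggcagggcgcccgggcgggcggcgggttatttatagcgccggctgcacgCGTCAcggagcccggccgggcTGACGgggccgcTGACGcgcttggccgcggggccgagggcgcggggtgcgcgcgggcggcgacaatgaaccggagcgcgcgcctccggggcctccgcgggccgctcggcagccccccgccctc
Nr4a3: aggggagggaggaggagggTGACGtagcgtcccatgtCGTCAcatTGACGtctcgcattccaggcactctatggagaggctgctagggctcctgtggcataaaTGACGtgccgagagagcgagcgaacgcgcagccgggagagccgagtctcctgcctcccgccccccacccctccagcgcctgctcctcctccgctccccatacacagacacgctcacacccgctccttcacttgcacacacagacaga
Each window held 4 CRE cores, counted on both strands. Of 32851 such windows of all genes, 17.8% held at least 1 core, 0.688% held at least 3 and 0.137% held at least 4, which was 45 windows. The Nr4a windows were rich in G and C, with 74.4%, 80.0% and 63.6% against a median of 52.4%. Among the 6582 windows with at least the GC content of Nr4a3, 0.380% (25 windows) held 4 cores or more. In the 20 windows of 16 other immediate early genes, 55% held a core, 1 window (Dusp1, a phosphatase that acts on MAP kinases) held 3 and none held 4. The full CRE, TGACGTCA, stood in 1.55% of all windows and the NBRE, AAAGGTCA, in 1.34%, and neither stood in the 3 Nr4a windows. The MEF2 consensus was found 1 time, in the Nr4a2 window, and in 2.92% of all windows. A match of letters is a description of the window and does not show that a factor binds there.

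**Figure D1:**
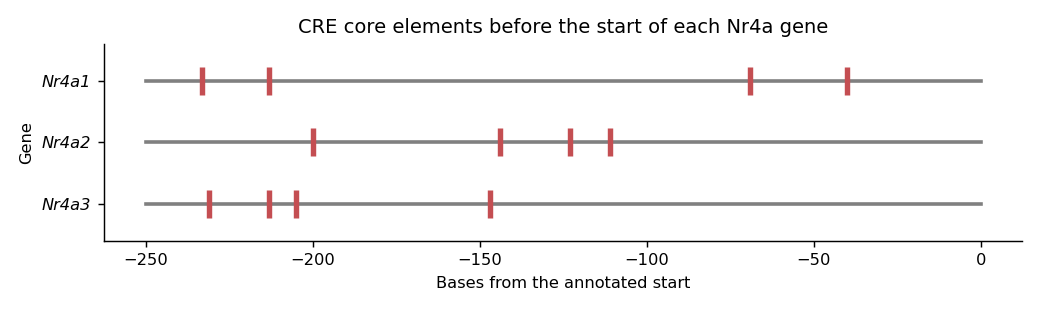
Position of each CRE core in the 250 bases before the start of the 3 Nr4a genes, with the distance from the start in bases on the horizontal axis and a red bar for the outer base of each core. Each gene has 4 cores, which lie 40 to 233 bases before the start in Nr4a1, 111 to 200 in Nr4a2 and 147 to 231 in Nr4a3.

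After the study's limits on cells and removal of doublets, 11121 cells remained for Healthy, 2160 for AS, 6796 for MTZ-treated and 14186 for MTZ-preventive, with 28244247, 3751615, 14955858 and 32738308 unique molecular identifiers (UMIs). The median cell had 1906, 1299, 1535 and 1643 UMIs. Between 24 and 240 cell barcodes were shared by a pair of libraries, 1.11% to 2.24% of the smaller one. A cell was given the type with the most detected markers where it held at least 3 of 10, which placed 80.1% to 87.7% of cells. Own markers among the 10 leading genes of a type numbered from 2 (neutrophils and neuronal cells) to 8 (T cells). The cells were gated on these markers, so that count is no independent check. Neuronal cells held a median of 7 of their own markers and 3 of fibroblasts. Levels are given as CPM, the UMIs of a gene in every 1000000 UMIs of a group of cells. Apoe, deleted in these mice by the labels, stood at 695 CPM in the library labelled Healthy but at 11.2 (AS), 12.5 (MTZ-treated) and 8.34 (MTZ-preventive) elsewhere. The library labelled Healthy therefore went against its genotype label, and every direction drawn from it below carries that doubt. The makeup also differed, with 2862 B cells and 1852 T cells in the library labelled Healthy, 11 and 8 in AS, 61 and 133 in MTZ-treated, and 971 and 817 in MTZ-preventive.

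Among types of at least 50 cells, Nr4a1 had its highest value in B cells wherever these could be measured. In MTZ-treated this lead over T cells, 1.14-fold (0.905 to 1.42), was not beyond counting error. The Nr4a1 level in B cells was 2549 CPM (limits 2508 and 2589.8) for the library labelled Healthy, 1078 (895 to 1287) for MTZ-treated and 2518 (2446 to 2591) for MTZ-preventive. The 11 B cells of AS gave 973 (602 to 1488). Thus the libraries labelled Healthy and MTZ-preventive lay close together, with a log2 ratio of -0.02 (-0.07 to 0.03), while MTZ-treated lay lower than the library labelled Healthy by a log2 ratio of -1.24 (-1.51 to -0.98). Cells with a productive B cell receptor chain gave 2348, 1156 and 2139 in the same order, and 640.1 in the 32 such cells of AS. These cells did not all fall in the B cell gate, and some were gated as other types. A chain was held by 6.76% of fibroblasts in the library labelled Healthy, 3.82% of ungated cells in MTZ-treated and 1.29% of smooth muscle cells in AS. The chain values are therefore not levels of B cells alone. With every cell thinned to 1000 UMIs, 76.7% of B cells (75.1% to 78.2%) from the library labelled Healthy held a UMI of Nr4a1, as did 59.0% (45.7% to 71.4%) from MTZ-treated and 76.0% (73.2% to 78.7%) from MTZ-preventive. Unthinned, the shares were 86.6%, 72.1% and 83.9%. In macrophages of AS the share was 9.76% (4.31% to 18.3%), or 19.5% unthinned, at a median of 1560.5 UMIs per cell against 1942 in B cells of the library labelled Healthy.

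After B cells, Nr4a1 stood at 1463 in natural killer (NK) cells, 1305 in Schwann cells and 1274 in T cells of the library labelled Healthy, 3 values that did not differ beyond counting error between neighbours. Smooth muscle cells followed with 915, fibroblasts with 599 and endothelial cells with 356. Lymphatic endothelial cells at 351 and neuronal cells at 296 followed, and neither step between neighbours was beyond counting error. The neuronal level was lower in MTZ-treated, at 84.3 (60.2 to 115), and stood at 407 (355 to 464) in MTZ-preventive. Judged from their markers, RNA of B and T cells would carry 135 and 58.7 of the 296 in neuronal cells of the library labelled Healthy, and 1.35 and 4.22 of the 84.3 in MTZ-treated, leaving 103 and 78.7. In MTZ-preventive such RNA would carry 72.4 and 40.0 of the 407, leaving 294.5, above the other libraries. In AS, smooth muscle cells led with 536 (480 to 596). Adipocyte-marker cells, with RNA of fat cell genes such as Adipoq and Plin1, had 271, fibroblasts 263 and endothelial cells 236, and these neighbours overlapped. Macrophages and neutrophils of AS were lowest, at 104 and 126. In MTZ-treated, B, T and NK cells at 1078, 948 and 905 did not differ beyond counting error between neighbours, and smooth muscle cells followed at 696. In MTZ-preventive the order was B cells, T cells at 1322, smooth muscle cells at 1036, fibroblasts at 816, adipocyte-marker cells at 593 and endothelial cells at 450.2, each step beyond counting error. Smooth muscle cells were thus above fibroblasts in all 4 libraries, by 1.27-fold in MTZ-preventive, 2.14-fold in MTZ-treated, 2.04-fold in AS and 1.53-fold in the library labelled Healthy.

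Nr4a2 had another order. Its highest level was in NK cells, with 1569.5 (1422 to 1729) for the library labelled Healthy, 1017 (819 to 1248) for MTZ-treated and 1373 for the 46 NK cells of MTZ-preventive. T cells had 517, 625 and 599.9 in the library labelled Healthy, MTZ-treated and MTZ-preventive, and B cells 205, 97.2 and 213. In the library labelled Healthy, Nr4a2 was 2.52-fold lower in B than in T cells while Nr4a1 was 2.0-fold higher. The same opposite order held in MTZ-preventive, with Nr4a2 2.82-fold lower and Nr4a1 1.91-fold higher in B cells. Schwann cells, the glia of peripheral nerves, had 619.7 of Nr4a2 in the library labelled Healthy, second only to NK cells there. B and T cell markers in those Schwann cells summed to 1.59% and 1.20% of their level in B and T cells, with 8 of 10 of each list detected and Cd22, Pax5, Trac and Cd28 at 0. Lymphatic endothelial cells had 264 (218 to 316) in MTZ-treated, against 84.8 in the library labelled Healthy and 86.7 in MTZ-preventive. Thinned to 1000 UMIs, a UMI of Nr4a2 was held by 68.5% (57.8% to 78.0%) of NK cells from the library labelled Healthy and 64% (49.2% to 77.1%) of those from MTZ-treated, with 85.4% and 72% unthinned. In macrophages of AS the share was 6.10%, or 8.54% unthinned.

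Nr4a3 was highest in T and NK cells. T cells had 369 (354 to 385) for the library labelled Healthy, 372 (299 to 457) in MTZ-treated and 365 (339 to 391) in MTZ-preventive, and the 3 ranges overlapped. NK cells had 400.0 (327 to 484) and 268 (172 to 399) in the first 2 of these. B cells were 2.91-fold lower than T cells in the library labelled Healthy, at 127, and 2.69-fold lower in MTZ-preventive, at 135. Endothelial cells, smooth muscle cells and fibroblasts were lower again, between 24 in endothelial cells of MTZ-treated and 73.2 in smooth muscle cells of MTZ-preventive. Lymphatic endothelial cells of the library labelled Healthy had 3.26 (0.39 to 11.8), from 2 UMIs in 110 cells. In AS, Nr4a3 was led by adipocyte-marker cells at 55.1 (38.8 to 76.0), with smooth muscle cells at 39.9 (25.8 to 58.8) not separated from them.

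**Figure D2:**
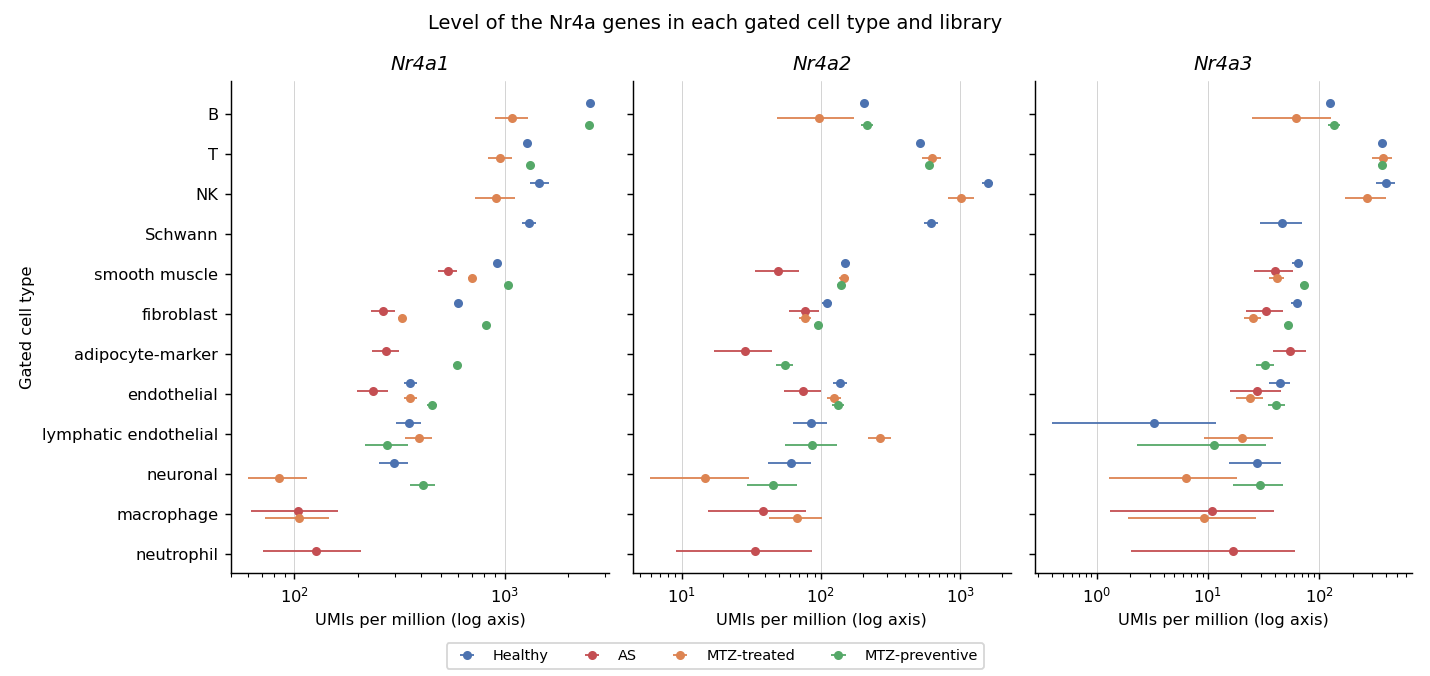
Level of each Nr4a gene in CPM (log axis) for each gated cell type with at least 50 cells, with a point for each library and bars for 95% limits of counting error. B, T, NK and Schwann cells stand at the right for Nr4a1 (up to 2549 in B cells), NK cells lead Nr4a2 (1569.5), and T and NK cells lead Nr4a3 (up to 400.0).

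Within T cells the 3 genes did not divide alike. In the library labelled Healthy, cells with Cd8 RNA had less Nr4a1 than those with Cd4 (985 against 1559) and less Nr4a3 (306 against 422), and more Nr4a2 (589.9 against 417). In MTZ-preventive the log2 ratios of Cd8 to Cd4 cells were -0.94 (-1.14 to -0.74) for Nr4a1, -0.81 (-1.18 to -0.42) for Nr4a3 and -0.19 (-0.49 to 0.12) for Nr4a2. Cd8 cells with Il2rb, which encodes CD122, had 1.19-fold more Nr4a1, 1.39-fold more Nr4a2 and 1.32-fold more Nr4a3 than Cd8 cells without it in the library labelled Healthy. In MTZ-preventive the same ratios were 0.976 (Nr4a1), 0.991 (Nr4a2) and 1.56 (Nr4a3), with the limits of the first 2 on both sides of 1. B cells with Cr2, the complement receptor high on marginal zone cells, had 2273 of Nr4a1 against 2379.8 in those with Fcer2a in the library labelled Healthy, a log2 ratio of -0.07 (-0.15 to 0.01), and -0.13 (-0.31 to 0.05) in MTZ-preventive. Plasma cells, with Jchain and Derl3, had 603 (485 to 742) in the 42 cells of MTZ-preventive and 669.7 (534 to 829) in the 28 cells of the library labelled Healthy.

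These levels and the makeup of a library together set which cells carried the transcripts. In the library labelled Healthy, B cells were 25.7% of the cells and held 41.4% of the Nr4a1 UMIs, while T cells were 16.7% of the cells and held 39.9% of the Nr4a2 and 50.1% of the Nr4a3 UMIs. In AS, smooth muscle cells held 28.8% of the Nr4a1 UMIs, fibroblasts 27.0% of the Nr4a2 UMIs and adipocyte-marker cells 24.3% of the Nr4a3 UMIs. In MTZ-treated, smooth muscle cells held 42.0%, 30.1% and 28.8% of the UMIs of Nr4a1, Nr4a2 and Nr4a3. In MTZ-preventive, fibroblasts held 24.6% and smooth muscle cells 21.1% of the Nr4a1 UMIs, and T cells, 5.76% of the cells, held 23.3% of the Nr4a2 and 26% of the Nr4a3 UMIs. Cells under no gate held 9.81% to 25.4% of the UMIs of a member.

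The comparison of AS with the library labelled Healthy asks what high-fat feeding did. Over all cells Nr4a1 stood at 1272 CPM (1259 to 1286) for the library labelled Healthy and 311 (293 to 329) in AS. Nr4a2 stood at 263 (257 to 269) and 66.1 (58.1 to 74.9), and Nr4a3 at 149 (145 to 154) and 40.5 (34.3 to 47.5). AS was thus 4.09-fold lower for Nr4a1, 3.98-fold lower for Nr4a2 and 3.69-fold lower for Nr4a3, with log2 ratios of -2.03 (-2.12 to -1.95), -1.99 (-2.18 to -1.81) and -1.88 (-2.13 to -1.65). All 3 were past a 2-fold difference, which 9.56% of 8592 genes reached downward and 7.96% upward. Only 2.99%, 3.14% and 3.43% of genes had lower ratios than Nr4a1, Nr4a2 and Nr4a3. The B and T cells moved with this result: without B, plasma, T and NK cells the levels were 816 and 305 for Nr4a1, 175 and 65.2 for Nr4a2, and 77.2 and 39.0 for Nr4a3, with log2 ratios of -1.42 (-1.51 to -1.33), -1.42 (-1.62 to -1.23) and -0.98 (-1.24 to -0.73). With types weighted as in the library labelled Healthy, which leans on the 11 B and 8 T cells of AS, the ratios were -1.14, -0.88 and -0.36, so that Nr4a2 and Nr4a3 were no longer past 2-fold. The diet, the genotype and the pool of animals cannot be told apart in these 2 libraries.

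Endothelial cells, smooth muscle cells and fibroblasts were the types with at least 50 cells in both libraries, and all 9 pairs of gene and type were lower in AS, with log2 ratios from -1.59 to -0.54 and a median of -0.77. Smooth muscle cells had 915 of Nr4a1 in the library labelled Healthy and 536 in AS, a log2 ratio of -0.77 (-0.94 to -0.61). Their Nr4a2 level was 149 against 49.4 (33.6 to 70.2), a log2 ratio of -1.59 (-2.16 to -1.08), and their Nr4a3 level 64.1 against 39.9, at -0.68 (-1.33 to -0.10). Fibroblasts had 599 against 263 of Nr4a1, at -1.19 (-1.39 to -0.99), 111 against 76.3 of Nr4a2, at -0.54 (-0.93 to -0.17), and 62.8 against 33.0 of Nr4a3, at -0.93 (-1.53 to -0.38). Endothelial cells had 356 against 236 of Nr4a1, at -0.59 (-0.86 to -0.32), and 137 against 74.8 of Nr4a2, at -0.88 (-1.37 to -0.41). Their Nr4a3 level, 44.4 against 27.8 from 16 UMIs in AS, gave limits on both sides of 0 (-1.54 to 0.10). Past 2-fold were Nr4a2 in smooth muscle cells and Nr4a1 in fibroblasts, against 8.58% of 25001 pairs of gene and type downward and 5.16% upward. The median over all genes in these types lay between -0.10 and -0.06. With clusters in place of gates 7 of 9 pairs were below 0, and Nr4a1 in smooth muscle cells (0.05, limits -0.21 to 0.30) and Nr4a2 in fibroblasts (0.02, limits -0.45 to 0.48) were not. There Nr4a1 in endothelial cells was at -1.75 (-1.98 to -1.53), past 2-fold, and Nr4a2 in smooth muscle cells, at -0.80 (-1.72 to -0.01), was not.

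Lymphocyte RNA lay outside lymphocytes to an unequal degree, which touches these ratios. The summed level of the 10 B cell markers in fibroblasts of the library labelled Healthy was 6.49% of its level in B cells, with all 10 detected, and 4.19% in smooth muscle and 2.37% in endothelial cells. In AS the same share was 0.364% to 1.07%, in MTZ-treated 0.138% to 0.496% and in MTZ-preventive 1.76% to 2.49%. At those shares B cell RNA would carry 165 and T cell RNA 91.1 of the 599 CPM of Nr4a1 in fibroblasts of the library labelled Healthy, and 107 and 55.8 of the 915 in smooth muscle cells. For the other members in the same fibroblasts they would carry 13.3 and 37.0 of 111 CPM (Nr4a2) and 8.22 and 26.4 of 62.8 CPM (Nr4a3). With these amounts subtracted in both libraries, 7 of the 9 ratios were below 0, and the median was -0.37. Nr4a2 (0.30) and Nr4a3 (0.17) in fibroblasts were above 0, and Nr4a1 in fibroblasts, at -0.42, was no longer past 2-fold. The subtraction leans on the 11 B and 8 T cells of AS. In cells with no UMI of any B, plasma, T or NK marker, a choice made after seeing the data as was the subtraction, 8 of the 9 ratios of AS over the library labelled Healthy were below 0. Nr4a1 was at -0.30 in endothelial cells, -1.12 in smooth muscle cells and -0.93 in fibroblasts, and the exception was Nr4a3 in endothelial cells at 0.19. That choice kept unlike shares of cells. In the library labelled Healthy it kept 42.5% of endothelial cells, 24.1% of smooth muscle cells and 20.2% of fibroblasts. In AS it kept 76.5%, 69.8% and 64% of the same types.

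MTZ given after atherosclerosis was compared with AS, and all 3 comparisons share the AS library, so that a low value in AS enters each of them. Over all cells Nr4a1 stood at 460.3 (449 to 471) in MTZ-treated, 1.48-fold above AS, with a log2 ratio of 0.57 (0.48 to 0.66). Nr4a2 stood at 136 (130 to 142), 2.06-fold above AS, at 1.04 (0.85 to 1.24), and Nr4a3 at 40.1 (37.0 to 43.5), at -0.01 (-0.27 to 0.25). Nr4a2 alone was past 2-fold, where 4.68% of genes were higher and 4.36% lower to that extent. Without B, plasma, T and NK cells the ratios were 0.54, 0.91 and -0.25, and none was past 2-fold. Within endothelial, smooth muscle, fibroblast and macrophage cells 9 of 12 pairs were above 0, with a median of 0.19. Smooth muscle cells had 147 (136 to 159) of Nr4a2 against 49.4 in AS, a log2 ratio of 1.57 (1.05 to 2.15), the only pair past 2-fold, against 5.48% of 31445 pairs upward and 8.68% downward. Fibroblasts had 77.4 against 76.3 of the same gene, at 0.02 (-0.35 to 0.42), and endothelial cells 125 against 74.8, at 0.74 (0.27 to 1.24). Nr4a1 was at 0.38 (0.21 to 0.55) in smooth muscle cells, 0.31 (0.11 to 0.51) in fibroblasts and 0.59 (0.32 to 0.86) in endothelial cells. Macrophages, with 82 cells in AS and 111 in MTZ-treated, had 104 and 105 of Nr4a1, and a difference within the limits of their log2 ratio (-0.84 to 0.91) was not detectable at this depth, while clusters in place of gates gave 0.91 (0.40 to 1.45). Their Nr4a2 level was 38.2 in AS, from 7 UMIs, and 67.7 in MTZ-treated, a log2 ratio of 0.83 (-0.45 to 2.30) that was 2.84 (1.76 to 4.19) with clusters in place of gates. The pairs below 0 were Nr4a3 in endothelial cells, fibroblasts and macrophages, each with limits on both sides of 0.

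MTZ given from the start was compared with AS in the same way. Over all cells Nr4a1 stood at 993 (982 to 1004) in MTZ-preventive, 3.20-fold above AS, with a log2 ratio of 1.68 (1.59 to 1.76). Nr4a2 stood at 164 (160.1 to 169), 2.49-fold above, at 1.32 (1.13 to 1.5), and Nr4a3 at 89.7 (86.5 to 93.0), 2.21-fold above, at 1.15 (0.91 to 1.39). All 3 were past 2-fold, which 4.39% of genes reached upward and 1.91% downward, and 98.0%, 97.1% and 96.3% of genes had lower ratios. Without B, plasma, T and NK cells the ratios were 1.51 (1.43 to 1.60), 0.95 (0.77 to 1.15) and 0.75 (0.51 to 1.01), so that Nr4a2 and Nr4a3 no longer reached 2-fold, nor did they with types weighted as in the library labelled Healthy (0.86 and 0.32). Within endothelial, smooth muscle, fibroblast and adipocyte-marker cells 11 of 12 pairs were above 0, with a median of 0.90. With the lymphocyte RNA subtracted as above, 11 of 12 were still above 0, with a median of 0.70. Fibroblasts then had 77.8 against 75.1 of Nr4a2 and 42.5 against 31.6 of Nr4a3. Fibroblasts had 816 of Nr4a1 against 263 in AS, a log2 ratio of 1.63 (1.45 to 1.83), but 94.5 against 76.3 of Nr4a2, at 0.31 (-0.05 to 0.69), a ratio that was -0.34 (-0.77 to 0.11) with clusters in place of gates. Smooth muscle cells had 1036 against 536 of Nr4a1, at 0.95 (0.79 to 1.11), 138 against 49.4 of Nr4a2, at 1.49 (0.97 to 2.05), and 73.2 against 39.9 of Nr4a3, at 0.88 (0.30 to 1.52). Endothelial cells had 450.2 against 236 of Nr4a1, at 0.93 (0.67 to 1.19). Adipocyte-marker cells had 593 against 271 of Nr4a1, at 1.13 (0.91 to 1.35), and 55 against 28.3 of Nr4a2, at 0.96 (0.28 to 1.72). Their Nr4a3 level was the exception, 32.7 (27.2 to 39.0) against 55.1 (38.8 to 76.0) from 37 UMIs in AS, at -0.75 (-1.29 to -0.18). That ratio was 0.26 (-0.56 to 1.15) with each cell thinned to 1000 UMIs, and -1.04 with the lymphocyte RNA subtracted. The 3 pairs past 2-fold were Nr4a1 in fibroblasts and adipocyte-marker cells and Nr4a2 in smooth muscle cells, against 4.43% of 31710 pairs upward and 3.69% downward. Cells with both Prg4 and Cxcl13 had 944 of Nr4a1 against 349 in AS, at 1.44 (1.08 to 1.82), and their Nr4a2 and Nr4a3 ratios, 0.43 and 0.15, had limits on both sides of 0.

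**Figure D3:**
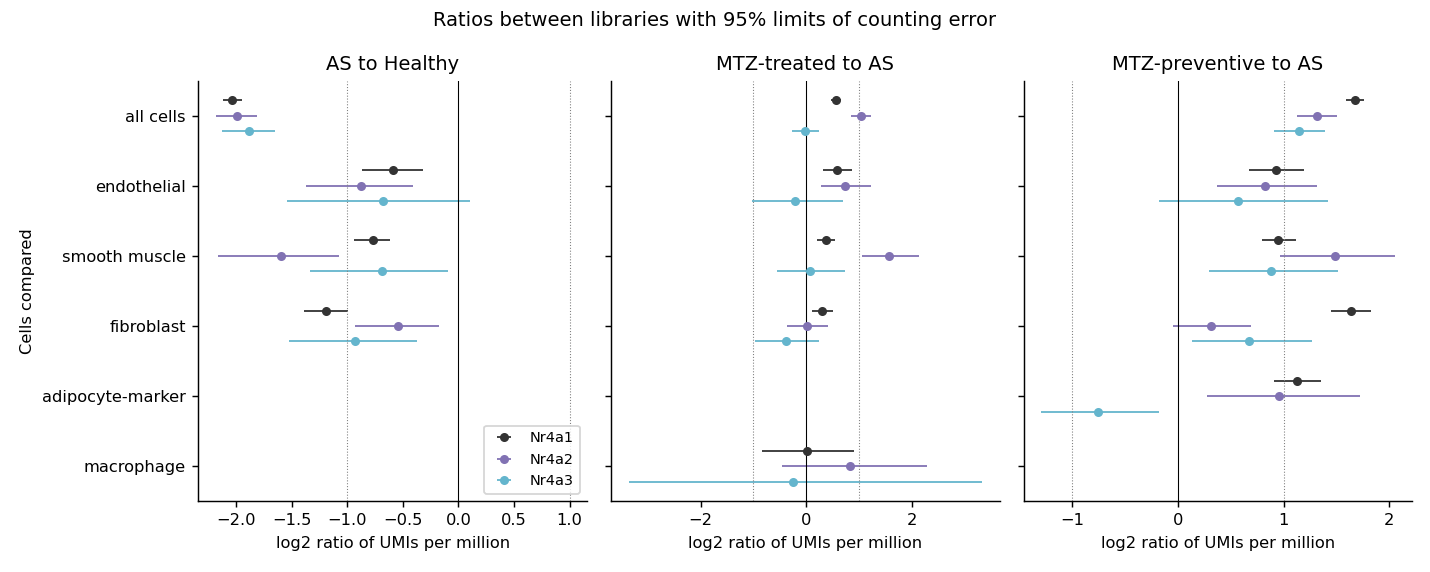
log2 ratio of CPM for each Nr4a gene between libraries, over all cells and within each type with at least 50 cells in both, with 95% limits of counting error and dotted lines at a 2-fold difference (the horizontal axes differ between panels). AS lies below the library labelled Healthy in every row of the left panel (-2.03 to -0.54), and Nr4a3 in adipocyte-marker cells is the only point below 0 in the right panel (-0.75).

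Over cell types the 3 genes varied together to different degrees. Over the 32 points of gated type and library with at least 50 cells, the Spearman correlation of their levels was 0.85 for Nr4a1 with Nr4a3, 0.79 for Nr4a1 with Nr4a2 and 0.71 for Nr4a2 with Nr4a3. The points share libraries and cell types and are not independent, so these are descriptions. Without the 9 points of the library labelled Healthy the values were 0.86, 0.74 and 0.63, and without the 6 points of AS 0.88, 0.74 and 0.76. Within libraries, Nr4a1 with Nr4a3 gave 0.82 over 9 types of the library labelled Healthy, 0.94 over 6 of AS, 0.88 over 9 of MTZ-treated and 0.95 over 8 of MTZ-preventive. Nr4a1 with Nr4a2 gave 0.88, 0.09, 0.72 and 0.81 in the same order, and Nr4a2 with Nr4a3 0.78, -0.09, 0.73 and 0.90. The low values for Nr4a2 in AS rest on 6 types with 4 to 67 UMIs. No neighbours in that order of types differed beyond counting error, but its ends did. Adipocyte-marker cells lay below fibroblasts there, at a log2 ratio of -1.43 (-2.25 to -0.68). AS was also the only library whose points held no lymphocytes. There the adipocyte-marker cells had the lowest Nr4a2 (28.3) and the highest Nr4a3 (55.1). After the mean of each type was subtracted, which leaves the differences between libraries, the 30 points gave 0.72 for Nr4a1 with Nr4a2, 0.64 for Nr4a1 with Nr4a3 and 0.57 for Nr4a2 with Nr4a3. Without the points of B, T and NK cells, Nr4a2 with Nr4a3 gave 0.44 and Nr4a1 with Nr4a3 0.74.

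**Figure D4:**
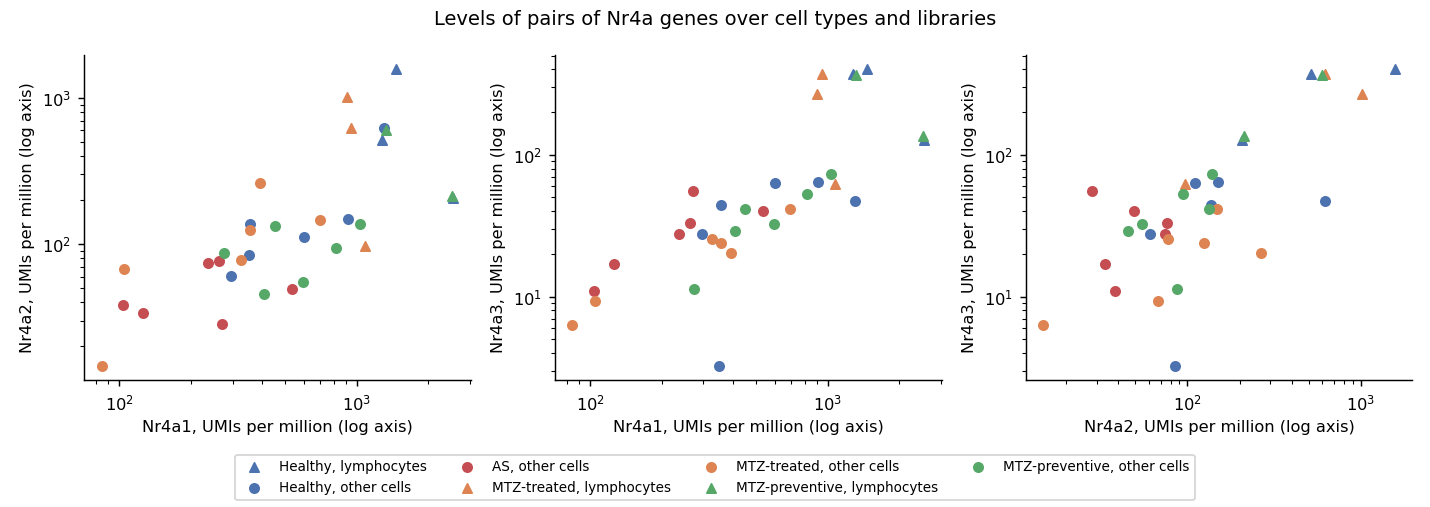
Levels of each pair of Nr4a genes in CPM (log axes), with a point for each gated type and library with at least 50 cells, triangles for B, T and NK cells and circles for the other types. T and NK cells stand at the upper right of each panel. The B cells of the libraries labelled Healthy and MTZ-preventive have the highest Nr4a1 (2549 and 2518). Their Nr4a2 (205 and 213) and Nr4a3 (127 and 135) lie below those of T and NK cells. Lymphatic endothelial cells of the library labelled Healthy have the lowest Nr4a3 (3.26).

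Among 8879 genes with a mean of at least 10 CPM over the same points, Nr4a3 ranked 4 in likeness to Nr4a1 and Nr4a1 ranked 4 in likeness to Nr4a3. Nr4a2 ranked 27 for Nr4a1 and 75 for Nr4a3. Among the genes most like Nr4a1 were Slbp, which binds the stem-loop of histone messages (0.88), Coq10b, a coenzyme Q binding protein (0.85), Nr4a3 and the noncoding host gene of small nucleolar RNAs Gas5 (0.85). Among those most like Nr4a3 were Arap2, a GTPase activating protein (0.86), Fbxo33 (0.85), Nr4a1 and Npm3 (0.84). Those most like Nr4a2 were Slbp (0.87), Emsy (0.87), Ankrd10 (0.86), Lsm14a (0.85) and Sertad2 (0.84), and Nr4a1 ranked 28 and Nr4a3 128.

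In single cells a member was more often found in cells that held another. Thinned to 1000 UMIs, 15.2% (13.7% to 16.8%) of B cells with Nr4a1 in the library labelled Healthy also held Nr4a2, against 6.30% (4.58% to 8.42%) of the other B cells. For Nr4a3 the shares were 12.6% (11.2% to 14.0%) and 5.10% (3.56% to 7.05%). T cells of that library held Nr4a3 in 31.7% (28.9% to 34.6%) of cells with Nr4a1 and 15.6% (13.2% to 18.4%) of the others. Smooth muscle cells held Nr4a3 in 11.6% (9.52% to 13.9%) and 3.98% (2.68% to 5.67%), and Nr4a2 in 20.5% (17.8% to 23.3%) and 11.4% (9.18% to 13.9%). Over 26 groups of type and library with at least 100 cells, Nr4a2 was more frequent in cells with Nr4a1 in 22, and in 11 the limits did not overlap. Nr4a3 was more frequent in cells with Nr4a1 in 20, in 10 without overlap, and in cells with Nr4a2 in 20, in 5 without overlap. In no group did the limits lie apart in the other direction. Other pairs of genes were not counted in this way, so whether these counts are particular to the family was not tested. Smooth muscle cells of AS, with 128 cells holding Nr4a1, gave 5.47% (2.23% to 10.9%) and 3.85% (1.86% to 6.96%) for Nr4a3, a difference not detectable at this depth. All 3 genes were found in 0.139% of cells in AS, 0.795% for MTZ-treated, 1.52% for MTZ-preventive and 2.77% in the library labelled Healthy, and none of them in 70.0%, 58.8%, 42.0% and 33.4%. NK cells held all 3 in 15.7% of cells in the library labelled Healthy and 16% in MTZ-treated, and T cells in 6.97% and 11.3%. Free RNA in droplets also gives such UMIs, and its part in these shares was not tested.

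**Figure D5:**
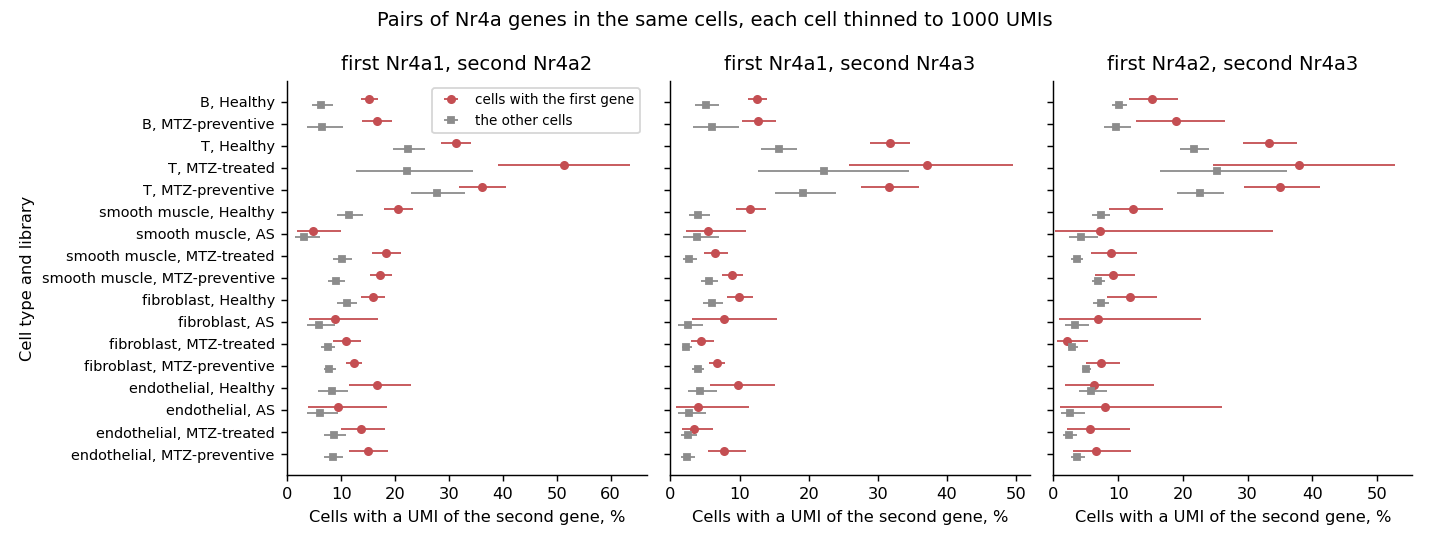
Share of cells with a UMI of a second Nr4a gene (%) among cells with and without the first, for 5 cell types in each library with at least 100 of their cells, each cell thinned to 1000 UMIs, with 95% binomial limits. The cells with the first gene (red) lie to the right of the others (grey) in most rows, such as 15.2% against 6.30% for Nr4a2 in B cells of the library labelled Healthy.

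Other genes of the pathway were read from lists, with counts of members past 2-fold and the shares of all genes given above as the background. Members were counted with a mean of at least 10 CPM over the libraries or, within types, over the pair of libraries compared. Of the retinoid X receptors, Rxra and Rxrb could be measured. Rxra was higher in AS than in the library labelled Healthy, at a log2 ratio of 1.33, and Rxrb was at -0.12. Within types Rxra was at 0.27 in endothelial cells, -0.20 in smooth muscle cells and 0.52 in fibroblasts, and it stood at 65.5 CPM in adipocyte-marker cells, 15.4% of cells in AS and 0.189% in the library labelled Healthy. Against AS, Rxra was at -1.17 in MTZ-treated and -0.43 in MTZ-preventive. Of 25 other nuclear receptors 16 were measured over all cells, with 2 higher and none lower in AS (median 0.05, from Nr2c2 at -0.94 to the liver X receptor gene Nr1h3 at 1.66). Within types the same comparison gave other counts. There 335 of all 8266 genes were higher and 642 lower in fibroblasts. In endothelial cells 389 and 670 of 8349 genes were, and in smooth muscle cells 567 and 834 of 8386. In fibroblasts none of 16 was higher and 4 were lower (median -0.74, lowest Rora at -1.37). Endothelial cells had 1 higher and 2 lower of 16 (median -0.33), and smooth muscle cells 1 and 2 of 17 (median -0.28). Against AS over all cells, 1 receptor was lower in MTZ-treated (Pparg, the fat cell receptor, at -1.23) and none was past 2-fold in MTZ-preventive (median 0.17). Of 15 upstream factors of the CREB, MEF2, SRF and NFAT families with calcineurin, 13 were measured over all cells. There 3 were lower in AS, led by Nfatc3 at -1.74 (median -0.43), with none past 2-fold against AS in MTZ-treated (median 0.06) or MTZ-preventive (median 0.31). Within types, AS against the library labelled Healthy had none of 13 past 2-fold in endothelial cells (median -0.14) or smooth muscle cells (median -0.54). In fibroblasts 1 of 14 was lower (Nfatc2 at -1.01, median -0.26).

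The 20 other immediate early genes gave other values over all cells than within types. Over all cells 2 were higher and 2 lower in AS than in the library labelled Healthy, beside 7.96% and 9.56% of all genes. The median of the list, -0.03, equalled that of all genes, and its members ranged from Egr3 at -2.38 to Ier3 at 1.47. In MTZ-treated 1 was higher and 1 lower (median -0.00), beside 4.68% and 4.36% of all genes. In MTZ-preventive 1 was higher (Egr3 at 1.07) and none lower (median 0.30), beside 4.39% and 1.91%. The summed level of the immediate early genes in smooth muscle cells was 23525, 24259, 21406 and 23780 CPM in the order Healthy, AS, MTZ-treated and MTZ-preventive. Nr4a1 in the same cells stood at 915, 536, 696 and 1036, Nr4a2 at 149, 49.4, 147 and 138, and Nr4a3 at 64.1, 39.9, 41.7 and 73.2. All 3 were lowest in AS, where the sum was highest. In fibroblasts the sum was 18225, 14467, 14842 and 22700.1, in the order of Nr4a1 there (599, 263, 325 and 816). Fibroblast Nr4a2 (111, 76.3, 77.4 and 94.5) and Nr4a3 (62.8, 33.0, 25.3 and 52.8) were instead highest in the library labelled Healthy. In endothelial cells the sum was 20168, 18080.3, 22408 and 27888, lowest in AS and highest in MTZ-preventive as Nr4a1 was. Endothelial Nr4a2 (137, 74.8, 125 and 132) and Nr4a3 (44.4, 27.8, 24 and 41.4) were highest in the library labelled Healthy. Neither differed there from MTZ-preventive beyond counting error. In both types Nr4a3 was lowest in MTZ-treated, where it was not separated from AS. Against AS, MTZ-preventive had 4 genes of the list higher and none lower in fibroblasts (median 0.62), and 3 higher and none lower in endothelial cells (median 0.52). Of all genes, 234 of 8021 were higher and 194 lower in fibroblasts, and 360 of 8227 higher and 262 lower in endothelial cells. The 10 heat shock genes, whose RNA is raised by stress such as that of tissue digestion, differed in the direction of Nr4a1 and Nr4a2 over all cells in each comparison, while Nr4a3 stood at -0.01 in MTZ-treated against AS. In AS 6 were lower and none higher than in the library labelled Healthy (median -1.48, lowest Hspa1b at -2.80). In MTZ-treated 1 was higher and none lower (median 0.66), and in MTZ-preventive 5 were higher and none lower (median 1.0, Hspa1b at 1.53). Their summed level over all cells was 13029, 4638, 6617 and 9081 in the same order, and 8849, 4936, 7285 and 8967 in smooth muscle cells. In the library labelled Healthy the sum was 19638 in B cells and 18187.5 in T cells, against 6718 in fibroblasts and 7271 in endothelial cells. The makeup of the libraries therefore enters the heat shock values over all cells. The part of the heat shock genes in the levels of the Nr4a genes was not tested.

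Of 20 genes induced by antigen receptors 17 were measured over all cells, and 10 were lower and 1 higher in AS than in the library labelled Healthy (median -1.81), from the homing receptor gene Ccr7 at -4.54 to the chemokine gene Ccl3 at 1.53. The 2862 B and 1852 T cells of the library labelled Healthy against 11 and 8 in AS moved with this list. Within smooth muscle cells 3 of 15 were higher and 5 lower (median 0.07), and within endothelial cells 2 and 4 of 13 (median -0.33). Within fibroblasts they were 2 and 10 of 17 (median -1.5), with Ccr7 lowest at -5.74, beside 335 and 642 of 8266 genes. A member could enter this count through its level in the library labelled Healthy alone, which favours a lower call. In MTZ-treated against AS, 10 members were measured in fibroblasts. B cell markers in fibroblasts stood at 6.49% of their B cell level in the library labelled Healthy and 0.453% in AS. The part of such lymphocyte RNA in these counts was not tested. In MTZ-preventive 7 were higher and 2 lower than in AS (median 0.75), with Ccr7 at 3.65 and Ccl3 at -2.79. That library held 971 B and 817 T cells. Within its fibroblasts the counts were 8 and 2 of 15 (median 1.02, Ccr7 highest at 4.51). In smooth muscle cells they were 5 and 2 of 15 (median -0.00), and in endothelial cells 3 and 2 of 14 (median 0.67). Adipocyte-marker cells had none higher and 1 lower of 13 (median 0.34). A member could enter these counts through its level in MTZ-preventive alone, which favours a higher call. The part of lymphocyte RNA was not tested here either. In MTZ-treated none was higher and 2 were lower than in AS (median -0.21, lowest Irf4 at -2.54). Of 10 genes of T cell tolerance and exhaustion, a state in which NR4A proteins are known to act, only Cd200 and Entpd1 were measured over all cells, and neither was past 2-fold in any comparison. Within T cells the summed level of that list was 172 CPM in the library labelled Healthy, 139 in MTZ-treated and 293 in MTZ-preventive. The MTZ-treated sum comes from 133 T cells. T cells of these libraries had 1274, 948 and 1322 of Nr4a1 in the same order. Their Nr4a2 levels were 517, 625 and 599.9, and their Nr4a3 levels 369, 372 and 365.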

How the data were processed

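The authors deposited raw UMI counts per gene and barcode, made with Cell Ranger 5.0.0 by the file headers, with STAR and mm10 named in the submitters' processing notes. Barcodes were kept with at least 200 genes, 1000 UMIs, a complexity of at least 0.7, at most 10% mitochondrial and 5% red cell UMIs, and doublets (0.8% per 1000 cells) were removed after simulation. Cells were gated on at least 3 of 10 markers of a type, with no other type equal, and given for at least 50 cells. UMIs were summed and scaled to CPM, with exact Poisson, binomial and conditional binomial limits (95%). PCR and capture are not covered by these limits. A count of 0 over all cells allows up to 0.0916 to 0.800 CPM, at 3 counts. Calls past 2-fold used 1 CPM added to both values and genes with a mean of at least 10. The text names the 3 members, the highest and lowest of each list, and the 5 genes most like each member, except for an item that is not reported here. Levels of different genes are not compared, because capture differs between genes. Alternatives are given in the closing section. Members, lists and gates were chosen with earlier results of these data known. Steps were tested on simulated data. Promoter windows are from RefSeq, GRCm38.p6, and all 3 genes matched. Receptor contigs served only to find cells with a productive chain. Sums and limits used pandas 2.3.3, numpy 2.4.6 and scipy 1.17.1 in Python 3.11.15, clusters leidenalg 0.10.2, scikit-learn 1.9.0 and igraph 0.11.9, plots matplotlib 3.10.9, and TMM factors edgeR 4.0.16 in R 4.3.3.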

Additional observations from a re-analysis of the deposited data

Results flagged for a closer look

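Nr4a3 in adipocyte-marker cells went the opposite way to smooth muscle cells and fibroblasts in MTZ-preventive against AS. Its log2 ratio was -0.75 there, against 0.88 in smooth muscle cells and 0.68 in fibroblasts. The difference between the types was not tested, since each has 1 library per group. It rests on 37 UMIs in AS. Over 8 alternatives the ratio ranged from -1.04, with the lymphocyte RNA subtracted, to 0.26, with each cell thinned to 1000 UMIs. Only that last value, 1 of the 8, was above 0. With clusters in place of gates it was -0.67, against 0.88 in smooth muscle cells and 0.01 in fibroblasts.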

How the results depend on the processing

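The ratios over all cells depended most on the makeup of the libraries. Without B, plasma, T and NK cells, AS to the library labelled Healthy was -1.42 for Nr4a1, -1.42 for Nr4a2 and -0.98 for Nr4a3, and MTZ-preventive to AS was 1.51, 0.95 and 0.75. With types weighted as in the library labelled Healthy, which leans on 11 B and 8 T cells of AS, AS to that library was -1.14, -0.88 and -0.36, MTZ-treated to AS was 0.29 for Nr4a1 and 0.78 for Nr4a2, and MTZ-preventive to AS was 1.22, 0.86 and 0.32. As the mean over cells, Nr4a1 was -2.26, 0.77 and 1.83 in the 3 comparisons, and Nr4a2 was 1.24 in MTZ-treated to AS. With totals free of mitochondrial, ribosomal protein and hemoglobin genes Nr4a1 was -2.19 in AS to the library labelled Healthy and 1.78 in MTZ-preventive to AS, where all deposited barcodes gave 1.55 and doublets kept 1.55. No ratio over all cells past 2-fold changed its sign, and that of Nr4a3 in MTZ-treated to AS, near 0, ranged from -0.25 to 0.20. Within types, 7 to 9 of 9 pairs were below 0 in AS, 7 to 10 of 12 above 0 in MTZ-treated and 10 to 12 of 12 in MTZ-preventive. With clusters of each library in place of gates, Nr4a1 in smooth muscle cells of AS was at 0.05, and the cause was not tested. The correlation of Nr4a1 with Nr4a3 was 0.79 as Pearson's on log2 values, 0.73 with at least 20 cells, 0.76 over clusters and 0.74 without lymphocyte points, where Nr4a2 with Nr4a3 was 0.44. Cells without lymphocyte markers, the subtraction of lymphocyte RNA and correlations without a library were added after seeing the data. Receptor chains gave no comparison with AS, which had fewer than 50 such cells. No paired analysis was possible because each group has 1 library, and no library could be left out of a comparison. Depth limits Nr4a2 and Nr4a3 in AS, with 248 and 152 UMIs in all.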
